A study of Homo sapiens with 12 samples.

Results

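SBC5 is an established human line of small cell lung cancer, and its resting transcriptome is described here from the 3 vehicle libraries among the 12 of the study. They were chosen by their treatment label alone: wild-type SBC5 cells, grown in RPMI medium with 10% fetal bovine serum, received the solvent dimethyl sulfoxide and 2 h later no radiation, and RNA was collected at 3 days. The cells were therefore vehicle-treated rather than untouched. The other 9 libraries had olaparib at 1 µM, 4 Gy of gamma radiation or both, and are not compared here. The labels do not say whether the 3 libraries came from separate cultures, so the spread between them may be technical, and a cell line of this kind is 1 population without stroma, vessels or immune cells. With 1 group there was no contrast to test, and what follows is a description of levels with their standard deviation (SD) over libraries 1, 2 and 3.

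Small cell lung cancer is a fast-growing tumor that is usually neuroendocrine: its cells make the granule and synapse proteins of hormone-secreting airway cells. Tumors and lines are sorted by the regulator they express most, such as NEUROD1 in a neuroendocrine form, POU2F3 in a form that resembles the chemosensory tuft cell, and, in some schemes, the Hippo pathway coactivator YAP1 in forms without neuroendocrine genes. Non-neuroendocrine forms are known for Notch signalling and for REST, a repressor of neuronal genes.

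Levels are counts per 1e+06 counts of a library (CPM). A gene with at least 1 CPM in each of the 3 libraries is called expressed, a gene with under 3 counts in each is called not detected, and genes between these are called low. Of 19848 protein coding genes of the nucleus, 12049 were expressed (60.7%) and 2536 were not detected (12.8%), and the median level was 4.03 CPM. Since long genes collect more counts, levels of single genes are compared with each other as CPM per kilobase of transcript (kb). CPM is used to say which genes took the most counts. Medians and sums of CPM over several genes are not corrected for length. As a second yardstick, 388 olfactory receptor genes, which most tissues leave silent, set a level at their 95th percentile of 1.37, 1.31 and 1.18 CPM per kb in libraries 1, 2 and 3. In each library 9993 of the nuclear protein coding genes lay above it (50.3%), and the median of all 19848 was 1.67 CPM per kb. A gene counts below as above this level only if it was so in each library, and otherwise as under it. Counts of list members below are to be read against these shares, 60.7% expressed and 50.3% above the olfactory receptor level.

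Promoters of 2 of the most highly expressed regulators and receptors, SOX2 and MET, are shown with those of NEUROD1, which passed 1 CPM in each library but lay under the olfactory receptor level, and of CXCL10, which had no counts. Each runs 5′ to 3′ from 250 bases before to 50 bases after the RefSeq start in GRCh38.p14, with every CG pair in capitals: SOX2 at chr3:181711675-181711974 on the plus strand, MET at chr7:116671946-116672245 on the plus strand, NEUROD1 at chr2:181680468-181680767 on the minus strand and CXCL10 at chr4:76023448-76023747 on the minus strand.
SOX2: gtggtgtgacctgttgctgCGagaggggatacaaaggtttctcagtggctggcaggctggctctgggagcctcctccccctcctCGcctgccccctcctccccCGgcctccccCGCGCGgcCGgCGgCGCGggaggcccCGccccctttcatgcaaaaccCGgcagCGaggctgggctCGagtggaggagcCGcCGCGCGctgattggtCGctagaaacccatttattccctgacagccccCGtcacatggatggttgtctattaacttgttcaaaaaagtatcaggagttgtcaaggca
MET: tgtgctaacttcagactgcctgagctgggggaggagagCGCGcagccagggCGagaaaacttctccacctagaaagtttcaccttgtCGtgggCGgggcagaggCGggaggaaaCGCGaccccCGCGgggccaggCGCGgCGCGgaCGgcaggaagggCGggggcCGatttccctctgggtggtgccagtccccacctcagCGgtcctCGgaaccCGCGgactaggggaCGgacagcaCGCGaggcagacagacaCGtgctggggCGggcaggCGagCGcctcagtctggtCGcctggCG
NEUROD1: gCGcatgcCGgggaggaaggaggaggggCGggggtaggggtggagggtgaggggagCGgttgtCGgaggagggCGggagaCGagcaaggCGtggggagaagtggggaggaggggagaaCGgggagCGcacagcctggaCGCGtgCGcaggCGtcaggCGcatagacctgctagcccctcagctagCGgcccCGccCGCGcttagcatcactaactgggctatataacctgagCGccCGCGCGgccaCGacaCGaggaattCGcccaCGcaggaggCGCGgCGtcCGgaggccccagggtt
CXCL10: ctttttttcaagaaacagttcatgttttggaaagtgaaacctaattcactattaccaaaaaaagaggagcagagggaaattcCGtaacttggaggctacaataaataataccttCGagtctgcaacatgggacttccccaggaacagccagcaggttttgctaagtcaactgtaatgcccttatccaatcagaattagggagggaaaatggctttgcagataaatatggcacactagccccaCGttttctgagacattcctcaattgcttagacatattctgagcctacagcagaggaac
The SOX2 promoter held 20 CG pairs and that of MET 30. The promoter of NEUROD1, a gene at 1.77 CPM, held 31, while that of CXCL10, a gene with 0 counts, held 3. The median over 15306 promoters was 22 pairs. The letters TATAAA, searched on both strands, were in none of the 4 and in 9.59% of these promoters. Matched promoters covered 77.1% of nuclear protein coding genes, under the 80% needed for a comparison of expressed with silent genes, so none was made.

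The counts of these libraries were dominated by mitochondrial ribosomal RNA. Genes typed as other ribosomal RNA took a mean of 0.0131% of counts. The shares given here are thus shares of the counts and not of the RNA in the cells. MT-RNR2 and MT-RNR1, the large and small ribosomal RNAs of the mitochondrion, together took 36.2% ± 0.634 of all counts (SD, n = 3). All mitochondrially encoded genes took 41.3%, 40.4% and 41.8% in libraries 1, 2 and 3 (mean 41.2%, SD 0.729). The 100 most abundant genes held 50.3% ± 0.512 of all counts (SD, n = 3), but 17.0% ± 0.485 of the counts outside the mitochondrial genome. A CPM over nuclear counts alone is therefore higher for every nuclear gene: SOX2 stood at 521 ± 30.2 CPM over all counts and 885 ± 41.3 over nuclear counts (SD, n = 3).

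Among mRNAs of the mitochondrion, MT-ND4, a subunit of respiratory complex I, took 12612 CPM and MT-CO1, a subunit of cytochrome oxidase, 12042. Outside it, several noncoding RNAs were among the genes with the most counts. MALAT1, a long RNA of nuclear speckles, had 20278, 19665 and 15643 CPM, so library 3 was the lowest. RN7SK, the small RNA that holds back the elongation factor P-TEFb, had 3542, 3717 and 5118 CPM and was highest in library 3. NEAT1, the scaffold of paraspeckles, stood at 1548 ± 41.8 CPM (SD, n = 3). The unnamed antisense gene ENSG00000283907 had 3995, 3504 and 1367 CPM, with library 3 far under the other two.

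The protein coding genes with the most counts had varied roles. EEF1A1, the elongation factor that brings transfer RNA to the ribosome, stood at 3506 ± 237 CPM and PABPC1, which binds mRNA tails, at 1501 ± 50.6 (SD, n = 3). GNAS, the stimulatory G protein subunit, stood at 1262 CPM, PHF3, a regulator of RNA polymerase II, at 1232, AKAP9, a scaffold of the centrosome and Golgi, at 1165, UACA at 1013 and ZNF292 at 902. ALDH1A1, an aldehyde dehydrogenase that makes retinoic acid and is widely used as a marker of stem-like tumor cells, had 1206, 1276 and 1191 CPM. NRCAM, a neuronal adhesion molecule, had 1078, 1060 and 1056 CPM. PRKDC, the kinase of DNA end joining, stood at 1130 ± 43.4 CPM and MKI67, the proliferation antigen Ki-67, at 998 ± 40.4 (SD, n = 3). The libraries differed little for these 4 genes. Per kb, ALDH1A1 stood at 836 CPM, beside EEF1A1 at 1017 and NPM1, a nucleolar chaperone, at 930. These 3 were among 8 genes in the 20 highest by each of 4 measures of transcript length, 3 of the 8 being ribosomal protein genes.

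**Figure D1:**
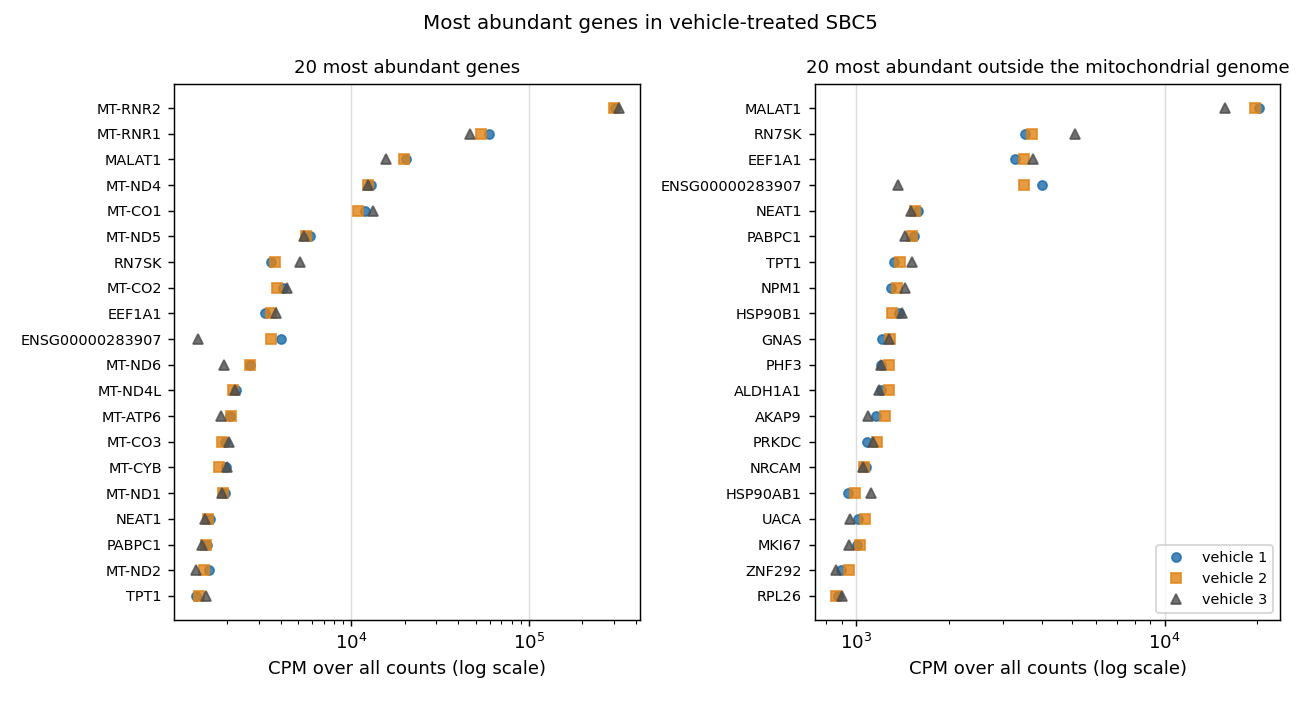
The 20 most abundant genes (left) and the 20 most abundant outside the mitochondrial genome (right) by CPM on a log axis, with 1 point for each of the 3 vehicle libraries. MT-RNR2 lies near 308932 CPM, and the points of most genes overlap, with ENSG00000283907 at 1367 CPM in library 3 against 3995 and 3504 as an exception.

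Of the regulators that define subtypes of small cell lung cancer, YAP1 had 113, 116 and 108 CPM in libraries 1, 2 and 3 (112 ± 4.06, SD, n = 3) and, at 29.3 CPM per kb, lay above the olfactory receptor level in each. ATOH1, a regulator of hair cells and of some neuroendocrine tumors, had 0 counts in each library. NEUROD1 had 3.07, 1.04 and 1.20 CPM, higher in library 1 than in the others, and so counted as expressed, but lay under the olfactory receptor level. POU2F3 had 1.15, 0.119 and 0.645 CPM, also under that level. None of 11 tuft cell genes was expressed and 3 were not detected. YAP1 was thus the only 1 of these 4 regulators above the olfactory receptor level.

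Of 25 genes used to score the neuroendocrine state, 12 were expressed (48%, against 60.7% of nuclear protein coding genes) and 6 not detected, with 7 above the olfactory receptor level and a median of 1.12 CPM. INSM1, a defining transcription factor, had 0 counts in each library, which allows up to 0.111, 0.0892 and 0.088 CPM. CHGA, the granule protein chromogranin A, had 0, 0 and 7 counts, and NCAM1, the adhesion molecule CD56, had 0.555, 0.594 and 0.264 CPM. CHGA and NCAM1 stayed under 1 CPM in every library. DLL3, an inhibitory Notch ligand and a drug target in this tumor, had 0.704, 0.267 and 0.205 CPM.

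The 7 score genes above the olfactory receptor level included the following 5. SYP, the synaptic vesicle protein synaptophysin, had 22.9, 25.6 and 19.1 CPM. KIF1A, the motor that carries synaptic vesicle precursors, had 138, 151 and 174 CPM. KIF5C, a kinesin of neurons, stood at 130 ± 12 CPM, SYT11, a synaptotagmin, at 93.4 ± 5.62 and CRMP1, a protein of axon guidance, at 32.0 ± 2.69 (SD, n = 3). Among 31 other neuroendocrine and neuronal genes 14 were expressed (45.2%, against 60.7% of nuclear protein coding genes) and 8 lay above that level. SCG2, the granule protein secretogranin II, had 126, 126 and 131 CPM, and STMN2, a tubulin regulator of growth cones, had 49.5, 53.9 and 59.9. UCHL1, a neuronal deubiquitinase, stood at 51.3 ± 4.29 CPM and FOXA1, a pioneer factor of lung and other endoderm, at 62.1 ± 2.25 (SD, n = 3). NEUROD2, a neuronal factor, had 37.2, 25 and 5.63 CPM, 6.60 times higher in library 1 than in library 3, so its level cannot be given as 1 value.

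The genes of the opposite score were as often expressed: 12 of 25 non-neuroendocrine genes (48%, against 60.7% of nuclear protein coding genes). Of the 25, 2 were not detected and 11 lay above the olfactory receptor level, under the background share of 50.3%. Their median was 0.982 CPM, against 4.03 CPM over nuclear protein coding genes. This list too was thus under the background, and the members named here are among its highest. ANXA1, which binds phospholipids and damps inflammation, had 494, 509 and 491 CPM. AHNAK, a giant scaffold protein, stood at 138 ± 7 CPM, CCN1, a matrix protein and YAP target, at 90.4 ± 1.41, and CAV1, the coat protein of caveolae, at 79.9 ± 5.94 (SD, n = 3). The 3 libraries lay close together for each. The repressor REST had 202, 204 and 214 CPM.

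Of 26 genes of the YAP and TEAD pathway 24 were expressed and 19 were above the olfactory receptor level, with a median of 18.7 CPM. The target CCN2, a matrix growth factor, had 306, 304 and 308 CPM. The upstream genes MOB1A (251 ± 9.24 CPM) and STK4 (74.1 ± 1.34) and the partner factor TEAD1 (49.3 ± 4.26) were present (SD, n = 3). WWTR1, the YAP1 paralog TAZ, had only 1.04, 1.58 and 1.35 CPM and lay under the olfactory receptor level, against YAP1 well above it.

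**Figure D2:**
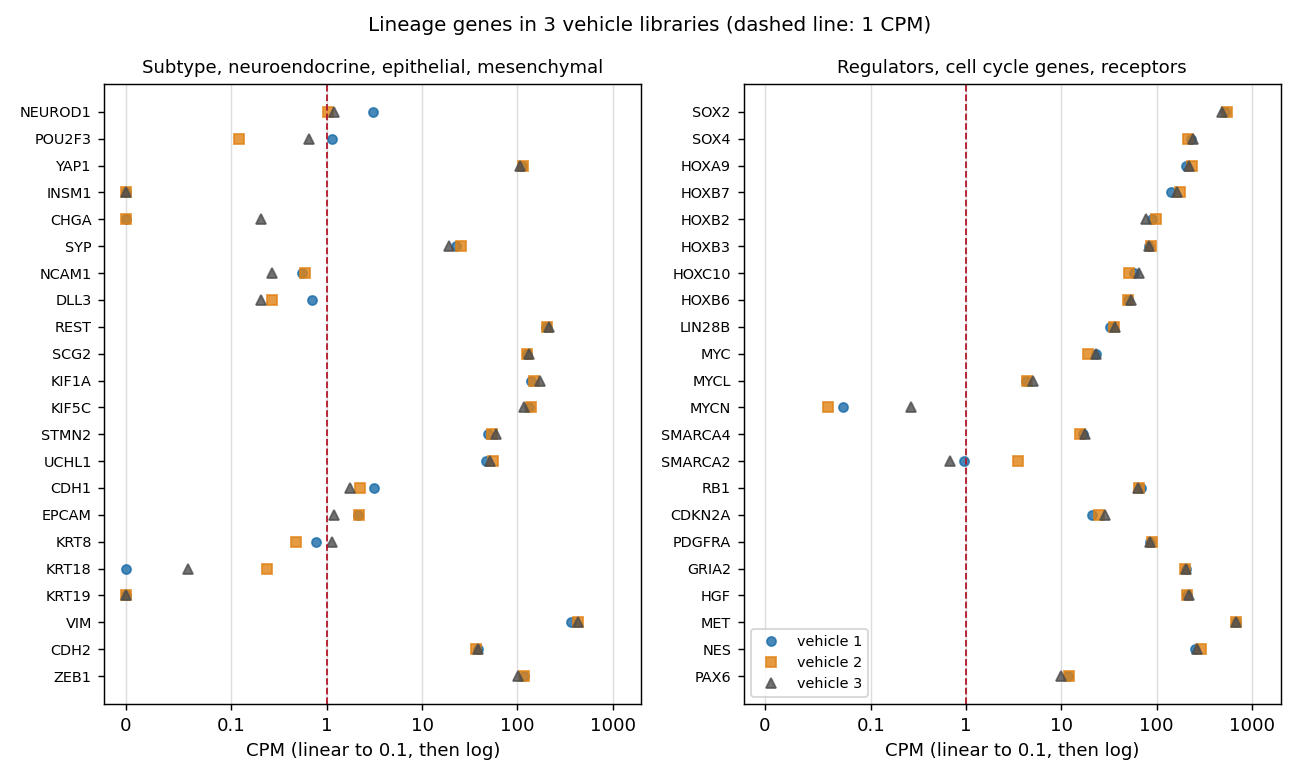
CPM of subtype, neuroendocrine, epithelial and mesenchymal genes (left) and of regulators, cell cycle genes and receptors (right), linear to 0.1 and logarithmic above, with 1 point per vehicle library and a dashed line at 1 CPM. INSM1 and KRT19 lie at 0, while YAP1, REST, SOX2 and MET lie above 100 CPM in each library.

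SOX2, a factor of stem cells, neural progenitors and foregut, had the highest level per kb of the listed regulators. It had 526, 548 and 488 CPM, or 207 CPM per kb. Of 20 SOX genes 6 were expressed (30%, against 60.7% of nuclear protein coding genes). SOX4, a factor of progenitors and of many tumors, had 229, 213 and 238 CPM, or 38.7 per kb. By counts, SOX12 (19.9 ± 0.620 CPM), SOX13 (9.28 ± 0.524) and SOX5 (9.05 ± 1.45) came next (SD, n = 3), and SOX21 and SRY had 0 counts. The overlapping transcript SOX2-OT, a noncoding RNA around SOX2, stood at 230 ± 6.93 CPM (SD, n = 3).

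Of 39 HOX genes, which set position along the body axis, 28 were expressed (71.8%, against 60.7%), 26 lay above the olfactory receptor level and 1 was not detected, with a median of 12.1 CPM. HOXA9 had 204, 238 and 217 CPM and HOXB7 had 143, 176 and 163, library 1 being lowest for both. HOXB2 stood at 88.4 ± 11 CPM, HOXB3 at 84.2 ± 2.42 and HOXC10 at 58.5 ± 7.04 (SD, n = 3). Summed by cluster, levels were 340 ± 25.6 CPM for HOXA, 458 ± 23.9 for HOXB, 140 ± 7.88 for HOXC and 38.0 ± 3.71 for HOXD (SD, n = 3). Neighbouring HOX transcripts overlap, so counts for single genes of a cluster are uncertain.

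Of 26 neural and glial progenitor genes 10 were expressed (38.5%, against 60.7% of nuclear protein coding genes). Above the olfactory receptor level lay 7, where 50.3% of all such genes lay. The list as a whole was thus expressed less often than the background. NES, the intermediate filament nestin of neural stem cells, had 255, 296 and 267 CPM. MSI2, an RNA-binding protein of progenitors, stood at 89.8 ± 4.80 CPM (SD, n = 3). PDGFRA, a growth factor receptor of glial progenitors and fibroblasts, had 86.3, 90.4 and 84.9 CPM. PAX6, a factor of neural tube and eye, stood at 11.3 ± 1.17 CPM (SD, n = 3). Of 40 master regulators of other lineages 15 were expressed (37.5%, against 60.7%), but 6 lay above the olfactory receptor level. Among those 6 were LIN28B, a repressor of let-7 microRNAs that is active in embryos, at 35.1 ± 2.14 CPM, and SALL4, a stem cell factor, at 13.1 ± 1.17 (SD, n = 3).

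Of 32 epithelial genes 8 were expressed (25%), 6 were not detected and 6 lay above the olfactory receptor level, against backgrounds of 60.7%, 12.8% and 50.3%, with a median of 0.365 CPM. CDH1, the adhesion protein E-cadherin, had 3.15, 2.26 and 1.76 CPM, and EPCAM, an epithelial adhesion molecule, had 2.11, 2.17 and 1.20, and both lay under that level. The keratin gene KRT19 had 0 counts in each library, KRT18 had 0, 8 and 2, and KRT8 had 0.778, 0.475 and 1.14 CPM. Desmosome genes did not follow them: DSP, desmoplakin, had 79.6, 81.1 and 85.0 CPM and JUP, plakoglobin, stood at 22.8 ± 3.76 (SD, n = 3).

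Of 35 mesenchymal and matrix genes 19 were expressed (54.3%, against 60.7% of nuclear protein coding genes) and 12 lay above the olfactory receptor level, where 50.3% of all such genes lay. COL5A2, a chain of collagen V, had 697, 746 and 802 CPM, and CTSK, a collagen-degrading protease best known from osteoclasts, had 316, 349 and 352, library 1 being lowest for both. The filament protein VIM had 368, 431 and 431 CPM. ZEB1, a repressor of CDH1, stood at 112 ± 8 CPM and CDH2, N-cadherin, at 38.0 ± 1.14 (SD, n = 3). FN1, fibronectin, had 2.22, 1.46 and 0.792 CPM, and lay under the olfactory receptor level.

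Markers of other cell types differed by type. Of 20 leukocyte markers 1 was expressed, CD68, a lysosomal protein, at 80.8 ± 7.61 CPM (SD, n = 3). That count rests on the threshold: it was 6 over nuclear counts or at 0.5 CPM, and 2, 2 and 3 without library 1, 2 or 3, but CD68 alone lay above the olfactory receptor level. CD14 and LYZ had 0 counts, and PTPRC, the leukocyte antigen CD45, had 1.89, 1.55 and 0.762 CPM. All 20 markers summed to 81.9, 85.8 and 94.3 CPM. Of 12 fibroblast markers 5 were expressed and 3 lay above the olfactory receptor level: PDGFRA, FBLN1 (29.4 ± 1.82 CPM) and COL1A1 (13.6 ± 0.689; SD, n = 3). COL3A1 and LUM, abundant products of fibroblasts, had 5, 8 and 0 and 2, 5 and 1 counts. Of 12 endothelial markers 2 were expressed. None of 16 liver and blood protein genes was expressed (1 over nuclear counts), and HBB and HBA1 had 0 counts. Of 20 airway and alveolar markers 6 were expressed, with SCGB1A1 and FOXJ1 at 0 and 1, the lipid transporter ABCA3 (21.9 ± 4.81 CPM; SD, n = 3), above the olfactory receptor level.

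The 32 genes of the cell cycle and proliferation list were all expressed, among them MKI67 and TOP2A, the topoisomerase of dividing cells, at 718 ± 21.3 CPM (SD, n = 3). Of 30 tumor suppressor and G1 genes 28 were expressed. RB1, a brake on the cell cycle that is usually inactivated in this tumor, had 68.7, 65.8 and 63.9 CPM. Its RNA was thus present, and counts per gene do not show mutations. CDKN2A, which encodes the inhibitor p16, had 21.0, 24.8 and 28.6 CPM and CDK6, its target kinase, stood at 256 ± 7.85 (SD, n = 3). Among MYC genes, MYC had 22.9, 19.1 and 23.0 CPM, MYCL had 4.26, 4.40 and 5.07, and MYCN had 2, 2 and 9 counts. MGA, a repressor that competes with MYC, stood at 247 ± 9.45 CPM (SD, n = 3).

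SWI/SNF subunits, which remodel nucleosomes, were expressed in 25 of 28 cases, with a median of 20.8 CPM. SMARCA4, one of its ATPases, had 16.7, 15.7 and 17.7 CPM, above the olfactory receptor level. The other ATPase, SMARCA2, had 0.963, 3.54 and 0.674 CPM, highest in library 2 and under that level. The subunits SMARCC1 (195 ± 11.1 CPM) and ARID1A (139 ± 11.5) were well above it (SD, n = 3).

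**Figure D3:**
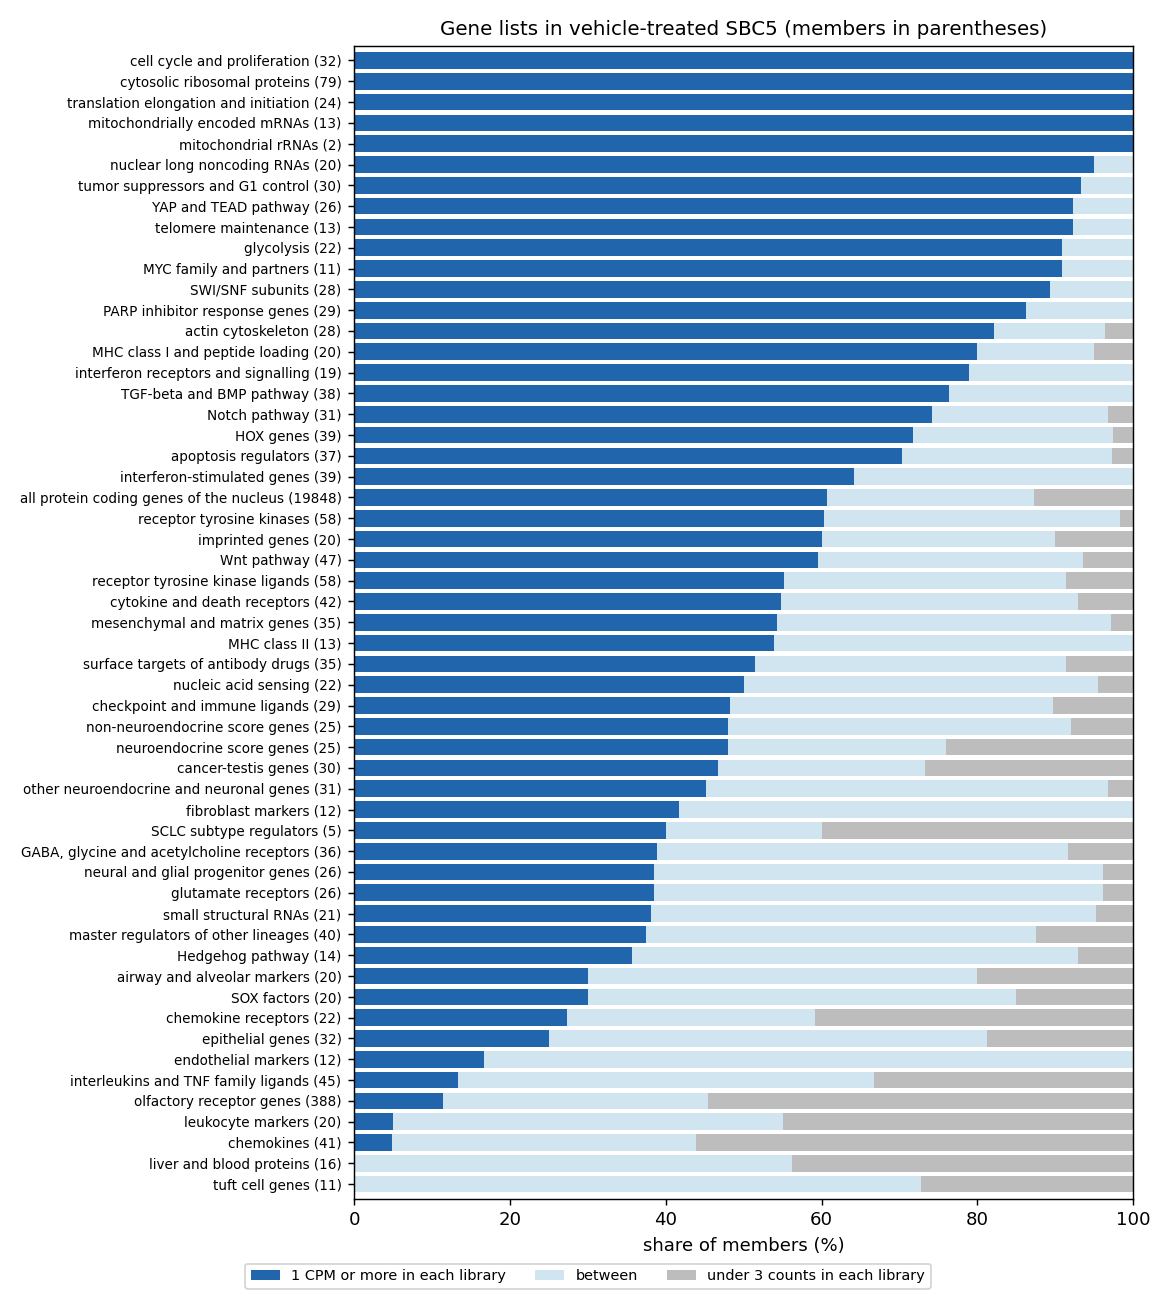
Share of the members of each gene list that was expressed (at least 1 CPM in each of the 3 vehicle libraries), not detected (under 3 counts in each) or between, with list sizes in parentheses. All protein coding genes of the nucleus (60.7% expressed) are the background. Tuft cell genes, liver and blood proteins, chemokines and leukocyte markers lie at the bottom.

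Receptor tyrosine kinases were expressed in 35 of 58 cases (60.3%, against 60.7% of nuclear protein coding genes), and a few took most of their counts. But 22 of the 58 lay above the olfactory receptor level, which is under the background share of 50.3%. MET, the receptor of hepatocyte growth factor, had 686, 676 and 682 CPM (681 ± 5.16, SD, n = 3; 147 per kb). IGF1R, the receptor of insulin-like growth factors, stood at 270 ± 9.84 CPM and ERBB4, a neuregulin receptor, at 168 ± 3.47 (SD, n = 3). PDGFRA had 87.2 ± 2.87 CPM (SD, n = 3). Per kb, IGF1R stood at 22.5 CPM, PDGFRA at 19.9 and ERBB4 at 13.9, so PDGFRA lay above ERBB4 by that measure. EGFR, the receptor of epidermal growth factor, had 6.37, 7.22 and 6.98 CPM and lay just above the olfactory receptor level at 1.78 per kb.

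Ligands of these receptors were expressed in 32 of 58 cases, with 19 above the olfactory receptor level. HGF, the ligand of MET and mostly a product of stromal cells, had 209, 207 and 221 CPM, or 361 ± 16.5 over nuclear counts (SD, n = 3). NRG1, a neuregulin, had 166, 165 and 172 CPM. PDGFC, a ligand of PDGFRA, had 138, 149 and 131. The 3 libraries lay close together for each of them. KITLG, the stem cell factor, stood at 67.6 ± 5.79 CPM and VEGFA, the vessel growth factor, at 47.5 ± 0.428 (SD, n = 3).

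Among 36 pairs of a ligand and its receptor, chosen after the values were seen, 9 had both members above the olfactory receptor level in each library. They were HGF with MET, NRG1, NRG2 and NRG4 with ERBB4, PDGFA and PDGFC with PDGFRA, IGF2 with IGF1R and with INSR, and PROS1 with MERTK. Of single nuclear protein coding genes 50.3% lay above that level, so unrelated genes would form such pairs about as often. The count of 9 of 36 is therefore not read as an excess, and no test was made. HGF and MET stood at 105 and 147 CPM per kb. By longest transcript these were 35.5 and 103, and by the union of exons 21.6 and 96.8, so the level of HGF depends on the length used. IGF2, with 12.8, 11.3 and 11.1 CPM, stood at 3.85 per kb against 22.5 for IGF1R. KIT, the receptor of KITLG, had 0.481, 1.37 and 1.47 CPM, and KDR, a receptor of VEGFA, had 7, 10 and 1 counts. RNA levels do not show whether ligands were secreted or receptors active.

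**Figure D4:**
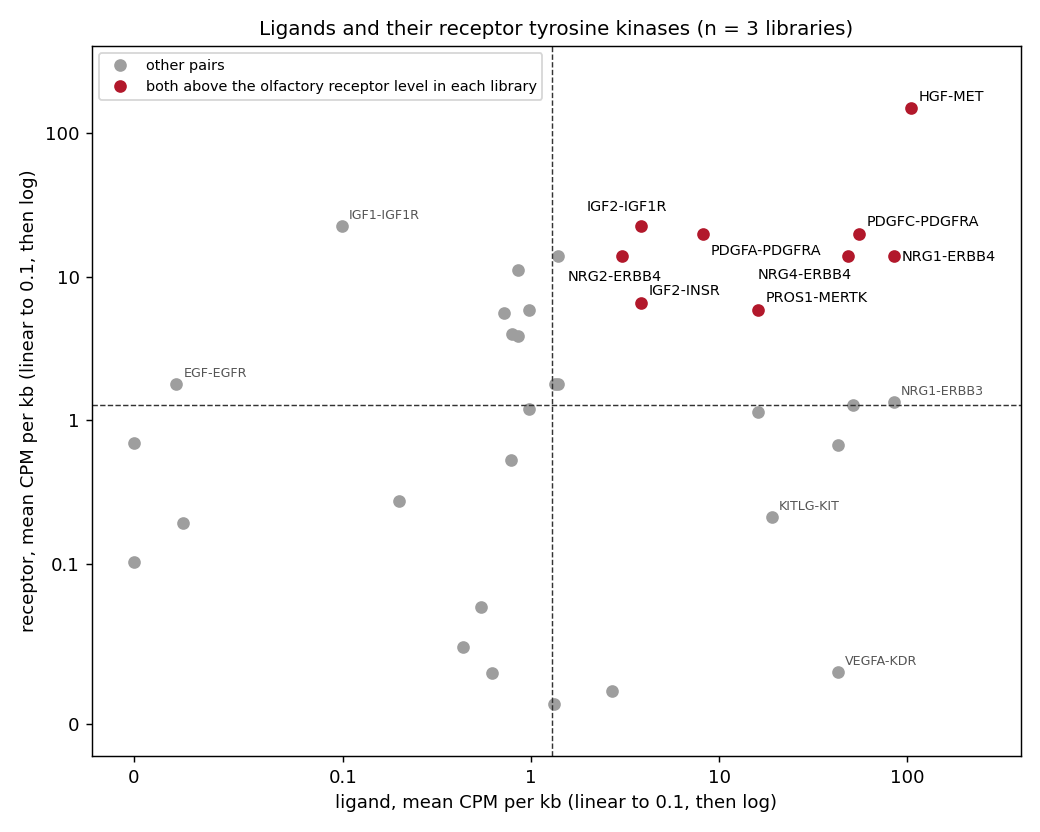
Mean CPM per kb of ligands (horizontal) and of their receptor tyrosine kinases (vertical) for 36 pairs, linear to 0.1 and logarithmic above, with dashed lines at the mean 95th percentile of olfactory receptor genes (1.29 CPM per kb). The 9 red pairs have both members above that level in each library, HGF-MET at 105 and 147, while KITLG-KIT and VEGFA-KDR have the ligand alone above it.

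GRIA2, a subunit of the AMPA glutamate receptor that makes the channel impermeable to calcium, had 203, 201 and 203 CPM (202 ± 1.27, SD, n = 3) and 58.8 per kb. It was the only 1 of 26 glutamate receptor genes above the olfactory receptor level in each library, although 10 were expressed (38.5%, against 60.7%). GRIA1, a partner subunit, had 5.41, 3.57 and 3.52 CPM, or 1.33 per kb. Of 36 receptor genes for GABA, glycine and acetylcholine 14 were expressed (38.9%, against 60.7%) and 10 lay above the olfactory receptor level. Among those 10 were GLRB, the glycine receptor beta subunit, at 32.9 ± 0.769 CPM and CHRNA7, a nicotinic receptor subunit, at 29.7 ± 4.48 (SD, n = 3).

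Notch genes were expressed in 23 of 31 cases, with a median of 9.43 CPM. The ligand JAG1 had 269, 252 and 272 CPM, the receptor NOTCH2 stood at 86.6 ± 8.19, and RBPJ, the factor through which Notch acts, at 266 ± 4.13 (SD, n = 3). HEY1, a target gene, had 87.9, 87.4 and 101 CPM, highest in library 3. DLK1, an imprinted Notch ligand, had 0 counts.

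Of the TGF-beta and BMP pathway 29 of 38 genes were expressed, with 25 above the olfactory receptor level. ID2, a target that blocks differentiation factors, stood at 200 ± 8.05 CPM, INHBA, which encodes an activin subunit, at 140 ± 6.71 and the signal transducer SMAD9 at 105 ± 0.771 (SD, n = 3). Wnt genes were expressed in 28 of 47 cases, near the background share. But 18 of the 47 lay above the olfactory receptor level, which is under the background share of 50.3%. The coreceptor LRP6 had 369, 343 and 345 CPM and the receptor FZD3 stood at 130 ± 11.1 (SD, n = 3), while WNT1 and WNT3A had 0 counts. In the Hedgehog pathway 5 of 14 genes were expressed, or 8 over nuclear counts and 9 at 0.5 CPM, and 3 lay above the olfactory receptor level. The coreceptor CDON (54.8 ± 3.89 CPM) and the receptor PTCH1 (47.3 ± 5.42) were among them (SD, n = 3), and SMO, the transducer, had 7, 0 and 4 counts (named after its values were seen).

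Of 20 MHC class I and peptide loading genes 16 were expressed and 15 lay above the olfactory receptor level, with a median of 6.94 CPM. The chaperones CANX (836 ± 45.1 CPM) and CALR (550 ± 20.3) were among them (SD, n = 3). B2M, the light chain of class I molecules, had 127, 118 and 115 CPM. HLA-B had 6.55, 6.33 and 5.75 CPM, and HLA-C had 9.81, 10.0 and 13.3. Per kb, these heavy chains stood at 9.35 and 7.19 CPM against 118 for B2M. By longest transcript the values were 4.01 and 5.88 against 49.9, and by the union of exons 2.04 and 4.41 against 19.7. The size of the gap thus depends on the length used. Reads of the HLA genes are hard to assign because the genes are alike and vary between people, so their levels are uncertain.

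For class II, 7 of 13 genes were expressed and 5 lay above the olfactory receptor level. CIITA, the coactivator of class II genes, had 7.52, 7.01 and 6.22 CPM, while HLA-DRA, a heavy chain, had 2, 3 and 0 counts (named after its values were seen). CTSS, a protease that acts on class II chaperones, stood at 99.5 ± 2.11 CPM (SD, n = 3).

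Of 19 interferon receptor and signalling genes 15 were expressed, among them the kinase JAK1 (42.9 ± 1.94 CPM) and the receptor chain IFNAR1 (24.2 ± 5.23; SD, n = 3). Of 39 interferon-stimulated genes 25 were expressed, near the background share, and 18 lay above the olfactory receptor level. MX2, an antiviral GTPase, stood at 46.0 ± 4.32 CPM (SD, n = 3), and OAS1, which senses double-stranded RNA, had 54.5, 45.1 and 33.8 CPM, highest in library 1. IFNB1 and IFNG had 0 counts in each library.

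Of 22 genes of nucleic acid sensing 11 were expressed. EIF2AK2, a kinase activated by double-stranded RNA, stood at 248 ± 10.1 CPM, ADAR, which edits such RNA, at 245 ± 14, and the adaptor MAVS at 44.7 ± 0.862 (SD, n = 3). CGAS, the sensor of cytosolic DNA, had 29.3, 30.6 and 24.9 CPM. STING1, the protein that relays its signal, had 10, 0 and 0 counts, all in library 1. TBK1, the kinase below STING1 and MAVS, had 119, 105 and 106 CPM.

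Chemokines attract leukocytes. Of 41 genes 2 were expressed (4.88%, against 60.7%) and 23 were not detected (56.1%, against 12.8%), 18 of them with 0 counts in all 3 libraries. CCL28, a mucosal chemokine, had 8.52, 9.63 and 7.89 CPM and was the only 1 above the olfactory receptor level. CXCL16 stood at 2.67 ± 0.234 CPM (SD, n = 3). CCL5, which draws T cells, had 5, 3 and 8 counts. CXCL10, an interferon-induced chemokine, had 0 counts, as CXCL9 and CXCL11 had. Of 22 chemokine receptors 6 were expressed and 2 lay above that level, among them CXCR4 with 15.8, 19 and 14 CPM. Of 45 interleukins and TNF family ligands 6 were expressed and 3 lay above it, among them TNFSF9 at 9.09 ± 0.984 CPM (SD, n = 3).

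Of 42 cytokine and death receptors 23 were expressed (54.8%, against 60.7%) and 14 lay above the olfactory receptor level, where 50.3% of all nuclear protein coding genes lay. IL6ST, the shared receptor of the interleukin 6 family, stood at 102 ± 3.27 CPM and the death receptor TNFRSF10B at 57.7 ± 5.31 (SD, n = 3). Of 29 checkpoint and immune ligands 14 were expressed and 11 lay above the olfactory receptor level. CD274, which encodes PD-L1, had 0, 2 and 4 counts. CD276, a related ligand, had 36.7, 38.5 and 38.0 CPM, and CD47, which holds off phagocytes, had 85.3, 63.7 and 53.8, highest in library 1. ULBP3, a ligand of natural killer cells, stood at 30.2 ± 2.36 CPM (SD, n = 3).

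**Figure D5:**
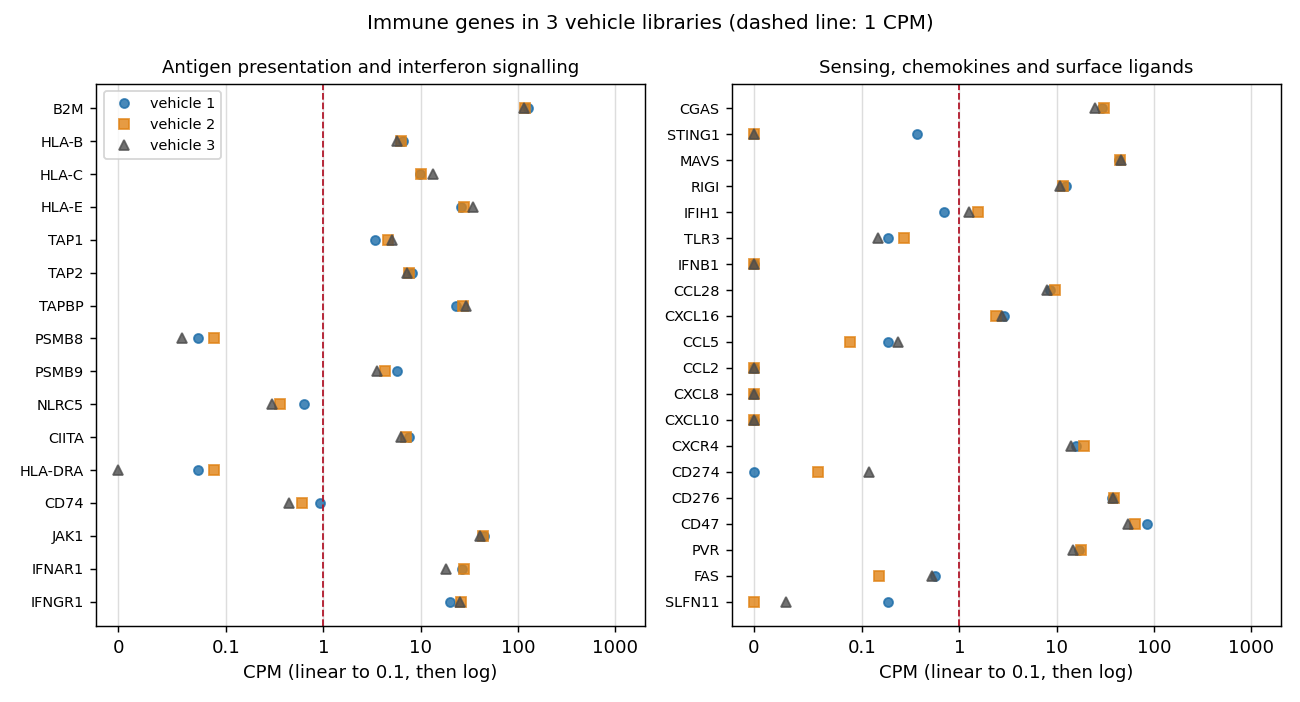
CPM of antigen presentation and interferon genes (left) and of sensing, chemokine and surface ligand genes (right), linear to 0.1 and logarithmic above, with 1 point per vehicle library and a dashed line at 1 CPM. CXCL10, CXCL8, CCL2 and IFNB1 lie at 0 in all 3 libraries, while B2M lies at 115 to 127 CPM.

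Genes that bear on the response to PARP inhibitors were expressed in 25 of 29 cases, with 24 above the olfactory receptor level and a median of 21.1 CPM. PARP1, the main target of olaparib, had 163, 175 and 191 CPM, lowest in library 1. RIF1 and TP53BP1, which steer broken ends to end joining, stood at 437 ± 19.7 and 150 ± 6.98 CPM, the damage kinase ATM at 227 ± 11.5 and BRCA2, a recombination gene, at 80.01 ± 10.4 (SD, n = 3). SLFN11, a factor that blocks stressed replication and whose absence is linked to resistance, had 5, 0 and 1 counts.

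Of 37 apoptosis regulators 26 were expressed. MCL1, a protein that protects mitochondria from permeabilisation, had 298, 295 and 310 CPM, and XIAP, an inhibitor of caspases, stood at 126 ± 1.89 (SD, n = 3). BCL2, which is often high in this tumor, had 1.56, 0.505 and 1.55 CPM (named after its values were seen). Of 13 telomere genes 12 were expressed, among them ATRX, a chromatin remodeller, at 288 ± 20.1 CPM (SD, n = 3).

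Of 30 cancer-testis genes, normally kept to the germ line, 14 were expressed and 8 not detected. CTCFL, a testis paralog of CTCF, had 130, 140 and 127 CPM and PRAME, a tumor antigen, had 78.9, 80.03 and 79.8. MAGEA4 stood at 80.9 ± 1.41 CPM and GAGE2A at 129 ± 13.6 (SD, n = 3). Both belong to families of similar genes, with near-identical copies for GAGE2A, so their levels are uncertain. Of 20 imprinted genes 12 were expressed, among them PEG10, a gene derived from a retrotransposon, with 595, 663 and 607 CPM.

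Of 22 glycolysis genes 20 were expressed, with a median of 44.6 CPM per kb against 1.67 over nuclear protein coding genes. ENO1, enolase, stood at 844 ± 40.9 CPM, LDHA, lactate dehydrogenase, at 785 ± 8.20 and GAPDH at 584 ± 70.3 (SD, n = 3). All 79 ribosomal protein genes were expressed, with a median of 196 CPM per kb, and all 24 translation factors. Of 28 actin cytoskeleton genes 23 were expressed. ACTG1 had 838, 847 and 856 CPM, ACTB had 552, 532 and 612, and TMSB4X, which holds actin monomers, had 610, 644 and 627. Ribosomal protein genes have many processed pseudogenes that share their reads.

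The 3 libraries agreed closely for most genes. Among 15851 expressed genes of all types the median coefficient of variation was 11.4%, and 7.41% among the 8084 over 10 CPM. Still, 909 genes (5.73%) differed more than 2-fold between the highest and the lowest library, 50 of them over 10 CPM. All 909 had counts whose 95% exact Poisson intervals did not overlap. At this depth the limits of 1 CPM and 2-fold fix that outcome, so it adds no support. Pearson's r of log2 CPM across genes was 0.983, 0.981 and 0.982 for the 3 pairs, with genes that are not independent replicates. PCSK5, a protease that processes precursor proteins, differed most, with 1397, 213 and 34.0 CPM, 41.1-fold between libraries 1 and 3. DPPA4, a gene of pluripotent cells, had 34.0, 17.5 and 3.61 CPM, and the potassium channel gene KCNJ2 had 10.1, 8.47 and 1.52. Of the 10 genes with the largest ratio, 6 were ordered library 1, then 2, then 3, as were 230 of the 909 (25.3%). The others included the read-through genes POC1B-GALNT4 and BIVM-ERCC5, whose reads can belong to either partner.

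Of the listed genes, 30 differed more than 2-fold, with the largest ratios in NEUROD2, NEUROD1 (2.95-fold) and CELF3, a neuronal splicing regulator, at 5.26, 2.70 and 1.82 CPM, all 3 highest in library 1. The summed level of olfactory receptor genes was 432, 411 and 355 CPM, also highest in library 1. Whether these differences share a source was not tested. SOX2, HGF, GRIA2, PDGFRA, MET and YAP1 were not among the genes that differed.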

How the data were processed

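Gene expression was measured by stranded total RNA sequencing, from 1 µg of RNA per library, in 3 vehicle libraries of SBC5. The values deposited by the authors are estimated counts per gene (expected counts), for 60649 Ensembl gene IDs. Per the submitters' processing notes, kallisto 0.46.1 and DESeq2 were used; the release of the transcriptome was not given in the sources used here, nor the build. Counts of 44 pseudoautosomal Y rows were merged into the X copies (60605 genes left), and estimates were rounded. Library totals, in units of 1e+06 counts, were 27, 33.7 and 34.1, so 3 counts, the limit that a count of 0 allows, are 0.111, 0.0892 and 0.088 CPM. Intervals and such limits cover counting error only.

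CPM were computed in Python 3.11.15 over all counts and again without mitochondrially encoded genes. TMM factors came from edgeR 4.0.16. A name table matched 60463 IDs and GENCODE 29 gave a type for 58337. CPM per kb used the median length of a gene's transcripts of its own type in the GENCODE 29 basic set, a restriction made after some truncated models had set the length. Lengths from GENCODE 29 may not be those of the transcriptome the authors used.

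The gene lists and the members were chosen with earlier results of these data known. Named genes are the 20 highest by CPM, the 20 highest nuclear protein coding genes per kb, 47 genes named whatever their values, defining cell type markers, up to 8 members of each list with the highest CPM, the 10 with the largest ratio between libraries and the 10 most abundant listed regulators. Olfactory receptors are given only as a set. Some genes that the rule names are not reported here. Others, including some plotted genes, were chosen after their values were seen. Of the list symbols 2 were not found in the table. Between each pair of libraries, counts differed by more than sampling noise (median scaled variance 3.23, 3.42 and 3.86, against 0.455 under counting error alone), so each was counted as 1 sample. The scripts were tested on simulated data.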

Additional observations from a re-analysis of the deposited data

How the results depend on the processing

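No paired analysis was possible because 1 group was used and no comparison was made. The number of expressed genes was 15851 and rose to 27216 when every gene with a count in each library was taken. The share of the 100 most abundant genes was 50.3%, 17.0% without mitochondrially encoded genes and 16.5% without these and small structural RNAs. The median level of the 47 genes named whatever their values was 16 CPM, and 27.2 CPM over nuclear counts. Of the 20 highest genes per kb, 11 remained with the union of exons as length, 12 with the longest transcript and 11 with the median over all transcripts of the gene's type, an alternative chosen after seeing the data. The number of genes that differed between libraries was 909 at a ratio over 2, 3663 over 1.5 and 128 over 3. Leaving out each library in turn gave 16281 to 16523 expressed genes and 831 to 846 expressed list members (817 with all). The share of the 100 most abundant genes was then 50.2% to 50.6%, the mitochondrial share 40.9% to 41.6% and the median level 15.6 to 16.2 CPM. The number of genes that differed was then 423 to 452. A gene's ratio over fewer libraries cannot exceed its ratio over all, so this number is not comparable with 909. The olfactory receptor level moved the count of expressed members by more than 1.5 times in 19 of 53 lists. For genes of a few counts, depth limits the statement to the floor given, and lengths are uncertain where a gene has short annotated transcripts.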

Other observations

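Of 35 surface proteins that antibody drugs target, 18 were expressed (51.4%, against 60.7% of nuclear protein coding genes). Above the olfactory receptor level in each vehicle library lay 13, which is under the background share of 50.3%. The list as a whole was thus expressed less often than the background. Apart from MSLN, the members named here are among its highest. Besides MET and IGF1R, the death receptor TNFRSF10B had 51.6, 61 and 60.6 CPM. ERBB2, a growth factor receptor, stood at 29.3 ± 3.04 CPM, PTK7, a pseudokinase of Wnt signalling, at 27.4 ± 2.18 and CD70, a TNF family ligand, at 13.7 ± 0.575 (SD, n = 3). MSLN, mesothelin, had 0 counts.

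Of 20 nuclear long noncoding RNAs 19 were expressed, with a median of 42 CPM. NORAD, which binds Pumilio proteins, stood at 448 ± 29.4 CPM, TUG1 at 238 ± 15.3 and GAS5, a host of small nucleolar RNAs, at 147 ± 5.12 (SD, n = 3). Of 21 small structural RNAs 8 were expressed. SNORD3A, the U3 small nucleolar RNA, had 286, 644 and 363 CPM, more than 2-fold higher in library 2 than in library 1.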
